A study of Mus musculus with 20 samples.

Results

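The response of iWAT (inguinal white adipose tissue), a fat pad under the skin of the groin, to a high fat diet was measured in control mice. The members were 10 of the 20 RNA-seq libraries of the series, 5 control mice on low fat diet (LFD, libraries 1 to 5) and 5 control mice on high fat diet (HFD, libraries 11 to 15), chosen by their labels alone. All were female C57BL/6 mice taken at the age of 6 months after 15 weeks on a diet. The diet held 10.5% fat, its carbohydrate mainly corn starch, or 58% fat, its carbohydrate mainly sucrose. The methods give the HFD less carbohydrate, so the amount of fat and both the amount and type of carbohydrate changed together. They also describe animals as fasted before tissues were taken. The labels call these mice wild type, and the methods describe them as littermates that carry both floxed copies of *Tmem120a* and lack the *Adipoq*-Cre transgene. The other 10 libraries came from knockout mice on the same diets, which carry the floxed alleles and Cre under the adiponectin promoter and so lose *Tmem120a* in adipocytes. They were used here only to ask whether the diet effect differed. Each library is the whole fat pad of 1 mouse as the labels give it, so fewer cells of a type and less RNA per cell cannot be told apart.

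White adipocytes store fatty acids as triglyceride in a single large droplet. They obtain these fatty acids from circulating lipoproteins through lipoprotein lipase, or make them from glucose by de novo lipogenesis, a pathway that is known to be driven by carbohydrate feeding. An expanding fat pad also remodels its matrix and vessels, takes up macrophages and secretes adipokines such as leptin, while iWAT in particular can hold beige adipocytes that express the thermogenic genes of brown fat.

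Total estimated counts lay between 63648801 and 87167760 per control library, and abundance is given as TPM, a share of all transcripts that is corrected for their length. Genes whose mean TPM reached 0.5 in the 10 control libraries were tested with edgeR, a count model fitted to all genes at once, and a call is an adjusted p under 0.1. Pearson correlations of log2(TPM + 1) lay between 0.882 and 0.965 among LFD libraries and between 0.935 and 0.965 among HFD libraries. Library LFD 4 took part in the lowest of these. The adipocyte genes were abundant in all 10 libraries. *Adipoq*, which encodes adiponectin, lay at 687 to 1156 TPM on LFD and 1087 to 1323 TPM on HFD, and *Cd36*, a fatty acid transporter, at 1263 to 2627 and 2924 to 3695 TPM. All 24 genes of a list of white adipocyte identity were tested, of which *Lep* and *Plin4* were called higher and *Fasn* and *Adrb3* lower.

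Of 15311 genes tested, 1427 were called, which is 9.32%. Among them 676 were higher on HFD, 4.42% of the genes tested, and 751 were lower, 4.9%. For 1498 genes, 9.78% of those tested, the TPM ranges of the diets did not overlap, with every HFD library above in 8.32% and every HFD library below in 1.46%. The called genes included 1327 that code for protein and 37 lincRNAs. A log2 fold change above 1 was fitted for 191 of those that rose, and one below -1 for 315 of those that fell. The scale mattered for the balance of directions. With limma on the deposited TPM values, 1791 genes were higher and 348 lower. The median log2 fold change of all genes tested was 0.13 there and -0.04 with the edgeR scaling. The share of higher calls was 47.4% by edgeR and 83.7% on the TPM scale, so rises and falls below are relative to the scaling used. DESeq2 called 2205 genes, and 1401 of the 1427 were among them. The number of calls also rested on single mice. It was 810 without LFD 2, 873 without LFD 3, 868 without LFD 5, 780 without HFD 12 and 827 without HFD 13, and 617 genes were called whichever of the 10 libraries was left out. Genes with long transcripts fell more often. Of 2746 genes whose longest transcript had at least 4731 bases, 91 were called higher and 280 lower, whereas the 2748 genes with the shortest transcripts gave 108 and 82. With offsets for transcript length these counts were 81 and 223 for the longest and 106 and 69 for the shortest. Calls also varied with GC, the share of the bases G and C in a transcript. The 2747 genes lowest in GC gave 51 higher and 147 lower, and the 2747 highest 136 and 106. With length offsets the lowest gave 68 and 108. The part of length and GC in the calls of single genes was not tested.

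**Figure D1:**
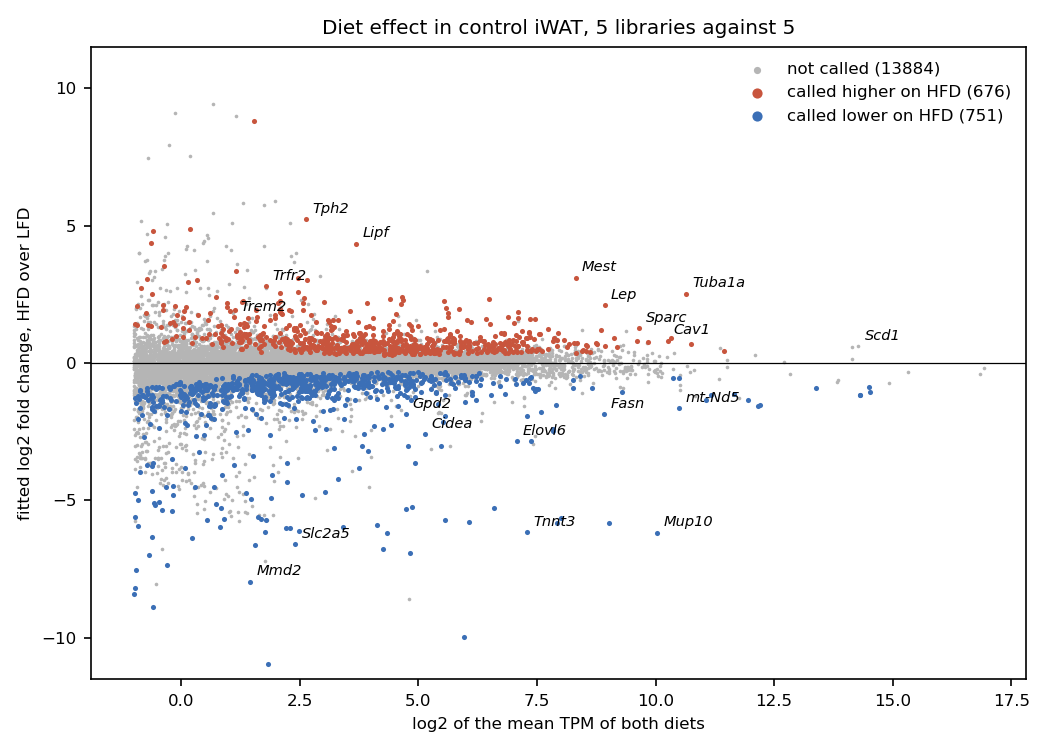
Each point is 1 of the 15311 genes tested, with the log2 of its mean TPM over both diets on the horizontal axis and the fitted log2 fold change, HFD over LFD, on the vertical axis; colours mark the 676 genes called higher and the 751 called lower. *Tph2* and *Lipf* stand among the largest rises, and *Mmd2*, *Slc2a5* and *Mup10* among the largest falls.

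Several genes of de novo lipogenesis fell on HFD. Of 22 genes for fatty acid synthesis, all tested, 8 were called lower and 1 higher, with a median log2 fold change of -0.32 against -0.04 over all genes tested. *Elovl6* (ENSMUSG00000041220, chromosome 3 from 129235304 to 129341413 in mm9), which elongates palmitate, stood at 112, 248, 212, 460.0 and 129 TPM in the LFD mice and at 48.2, 38, 24.6, 24.7 and 50.8 TPM in the HFD mice. Every HFD library lay below every LFD library, and LFD 4 was the highest. The means were 232 ± 139 TPM on LFD and 37.2 ± 12.5 TPM on HFD (SD, n = 5 each), a 6.24-fold difference (log2 fold change -2.84, standard error 0.406, adjusted p = 0.00464, edgeR). *Fasn*, the fatty acid synthase, gave 628, 989, 540.4, 859 and 679.8 TPM on LFD and 392, 220.2, 151, 125 and 248 TPM on HFD, again without overlap (log2 fold change -1.86, standard error 0.398, adjusted p = 0.0236, edgeR).

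*Acaca*, which makes the malonyl-CoA used by the synthase, fell from 365 to 95.4 TPM (log2 fold change -2.42, standard error 0.325, adjusted p = 0.00358, edgeR). *Acly*, which supplies acetyl-CoA from citrate, fell from 231 to 81.6 TPM (log2 fold change -1.92, adjusted p = 0.00622, edgeR). The regulator *Thrsp* stood at 153, 245, 235, 602 and 183 TPM on LFD and 108, 40.9, 38.5, 18.9 and 32.6 TPM on HFD, and the highest HFD mouse, HFD 11, remained below the lowest LFD mouse (log2 fold change -2.82, standard error 0.539, adjusted p = 0.0143, edgeR). *Mlxipl*, which encodes the carbohydrate-responsive transcription factor ChREBP, fell from 13.1 to 5.49 TPM (log2 fold change -1.35, adjusted p = 0.00528, edgeR). *Acacb*, whose product restrains fatty acid entry into mitochondria, and the malic enzyme gene *Me1*, a source of NADPH, fell with log2 fold changes of -2.41 and -0.89 and ranges that overlapped. LFD 4 was the highest LFD library for 7 of these 8 genes, and without it all 8 were still called lower, with adjusted p between 0.00205 for *Acaca* and 0.0955 for *Me1* (edgeR). The median of the whole list was 0.02 without LFD 4, so its direction rested on that mouse, and it was -0.56 without HFD 11 and -0.19 without HFD 14. *Me1* lost its call without LFD 2, LFD 3, HFD 12, HFD 13 or HFD 14, with adjusted p between 0.112 and 0.145 (edgeR).

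The desaturases did not follow the other enzymes. *Scd2* rose from 78.9 to 275 TPM (log2 fold change 1.62, adjusted p = 0.0453, edgeR). *Scd1*, the more abundant desaturase, stood at 15347, 15099, 12267, 14021 and 17071 TPM on LFD and 30627, 23941, 26509, 20354 and 22859 TPM on HFD. All 5 HFD values were above all 5 LFD values, a 1.68-fold difference in mean TPM, yet edgeR did not call the gene (log2 fold change 0.61, adjusted p = 0.207, edgeR), while DESeq2 did (adjusted p = 5.5e-06). *Srebf1*, which encodes a lipogenic transcription factor, was not called either, with 40.9 TPM on LFD and 51.1 TPM on HFD (log2 fold change 0.03, adjusted p = 0.978, edgeR).

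A pair of metabolic genes outside that list was lower in every HFD mouse than in any LFD mouse. *Slc2a5* (ENSMUSG00000028976, chromosome 4 from 149493392 to 149518278), the fructose transporter, stood at 5.23, 10.1, 8.42, 26.8 and 2.15 TPM on LFD and at 0.0361, 0.0689, 0.0363, 0.0846 and 0.0048 TPM on HFD. It was nearly absent from each HFD library, with a mean 229 times lower (log2 fold change -6.60, standard error 0.627, adjusted p = 0.00063, edgeR). *Gpd2*, the mitochondrial glycerol phosphate dehydrogenase, which passes electrons to the respiratory chain, gave 27.3, 36.9, 40.6, 51.5 and 46.6 TPM on LFD and a narrow 14.2, 13.3, 15, 11 and 12.2 TPM on HFD (log2 fold change -1.86, standard error 0.158, adjusted p = 0.00051, edgeR). It was among the 10 called genes with the smallest p.

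Genes for the import and the oxidation of pyruvate fell. *Brp44l*, now named *Mpc1*, a subunit of the mitochondrial pyruvate carrier, stood at 695, 718, 742, 1182 and 687 TPM on LFD and 553, 455, 403, 447 and 427 TPM on HFD, with no overlap (log2 fold change -1.05, standard error 0.200, adjusted p = 0.0137, edgeR). The pyruvate dehydrogenase genes *Pdha1* and *Pdhb* fell, with log2 fold changes of -0.95 and -1.12, as did *Dlat*, of the same complex (-0.64). With *Brp44l*, *Idh3b* and *Got2* these made 6 of 27 genes of the tricarboxylic acid cycle list called lower, none higher, with a median of -0.32. Their ranges overlapped apart from that of *Brp44l*, and LFD 4 was the highest LFD library for 5 of the 6. *Slc2a4*, the insulin-responsive glucose transporter, was not called and overlapped, at 43.4 and 34.6 TPM. Of 36 genes of insulin signalling and glucose uptake 3 were called higher (*Akt2*, *Pfkp*, *Pik3cb*) and 3 lower (*Slc2a5*, *Irs1*, *Ldhb*). The higher count was 1 without LFD 2, LFD 3, LFD 5, HFD 11, HFD 12 or HFD 15, and the lower count 5 without HFD 11. *Irs1*, which couples the insulin receptor to its kinases, stood at 27.1, 24.4, 17.6, 13.9 and 23.2 TPM on LFD and 10.5, 9.58, 13.1, 10.2 and 7.42 TPM on HFD (log2 fold change -1.23, standard error 0.172, adjusted p = 0.00421, edgeR), so each HFD value was the lower.

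Genes for taking up lipid from the blood went the other way. Of 19 genes of lipoprotein lipase and fatty acid uptake, 4 were called higher and 1 lower, with a median of 0.32. *Gpihbp1*, which holds lipoprotein lipase on the capillary wall, stood at 35.4, 39.4, 31.5, 41.5 and 47.8 TPM on LFD and 73.6, 83.7, 99, 50.8 and 82.3 TPM on HFD, all higher (log2 fold change 0.81, standard error 0.151, adjusted p = 0.012, edgeR). *Vldlr*, a receptor for triglyceride-rich lipoproteins, rose from 33.3 to 73.8 TPM (log2 fold change 0.74, adjusted p = 0.00956, edgeR), and *Apoe*, the ligand of such receptors, from 628 to 1215 TPM (log2 fold change 0.75, adjusted p = 0.0807, edgeR). *Lipf*, known as gastric lipase, was low in all LFD mice, at 3.0, 0.344, 0.521, 0.53 and 0.812 TPM, and reached 17.4, 21, 17, 27.6 and 41.2 TPM on HFD (log2 fold change 4.34, standard error 0.629, adjusted p = 0.00483, edgeR). The mean was 23.9 times higher. *Lrp1*, another lipoprotein receptor, fell by 1.06 on the log2 scale. *Lpl* itself was not called, at 461 to 1843 TPM on LFD and 1279.8 to 1893 TPM on HFD (log2 fold change 0.37, adjusted p = 0.522, edgeR), nor was *Cd36* (log2 fold change 0.56, adjusted p = 0.159, edgeR).

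Among 13 tested droplet proteins *Plin4* and *2310016C08Rik*, now named *Hilpda*, rose by 0.74 and 1.55 on the log2 scale, and *Cidea* fell. Lipolysis gave 2 called in each direction of 15. *Adora1*, an adenosine receptor that restrains lipolysis, rose from 16.1 to 38.1 TPM (log2 fold change 1.04, adjusted p = 0.00528, edgeR), and *Mgll*, which cleaves monoglyceride, from 100.5 to 173 TPM. *Adrb3*, the adrenergic receptor that triggers lipolysis, and the carboxylesterase *Ces1f* fell, with log2 fold changes of -0.90 and -0.79. The lipase genes *Lipe* and *Pnpla2* had log2 fold changes of 0.11 and -0.29 and were not called. Of 23 genes of cholesterol synthesis and uptake 3 rose, among them the sterol synthesis enzymes *Cyp51* and *Lss*, by 0.73 and 0.79. Of 16 genes of triglyceride synthesis, *Mogat2* alone was called (1.75), and of 26 genes of fatty acid oxidation *Cpt1a* (0.44) and *Hsd17b4* (0.47) rose while *Ppara* fell (-1.28). In the oxidation list 6 were called lower without LFD 1, 3 without LFD 2 and none without LFD 5, and those called higher were none without HFD 12 and 1 without LFD 2 or HFD 11. The number of cholesterol genes called was 1 without LFD 2, LFD 3, LFD 5, HFD 11, HFD 12 or HFD 15 and 5 without LFD 1 or LFD 4.

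Genes linked to the enlargement of white fat made the clearest rise. Of 14 tested genes of a fat expansion list, 8 were called higher and 1 lower, with a median of 1.07. That list was drawn up with results of these libraries known, so its direction is no independent evidence. Without LFD 2, LFD 3 or HFD 12, 5 of the list were called higher. *Mest* (ENSMUSG00000051855, chromosome 6 from 30673547 to 30698457), an imprinted gene, stood at 52.3, 63.7, 15.1, 4.22 and 174 TPM on LFD and 429, 627, 523, 565 and 737 TPM on HFD. The lowest HFD library was above the highest LFD library, although LFD values spread over a wide range. The mean was 9.31 times higher (log2 fold change 3.10, standard error 0.725, adjusted p = 0.0333, edgeR). *Peg3*, also imprinted, rose from 13 to 32.9 TPM on LFD to 48.1 to 98.7 TPM on HFD (log2 fold change 1.83, adjusted p = 0.00712, edgeR).

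*Lep* (ENSMUSG00000059201, chromosome 6 from 29010220 to 29023877), the gene of leptin, stood at 294, 181, 118, 36.2 and 215 TPM on LFD and 812, 931, 780.4, 598 and 896 TPM on HFD without overlap (log2 fold change 2.10, standard error 0.378, adjusted p = 0.0105, edgeR). *Trp53inp2*, an autophagy gene, gave 23.3, 20.4, 19.1, 15.5 and 31.9 TPM on LFD and 80.4, 75.3, 75.2, 71.8 and 79.8 TPM on HFD, with no overlap (log2 fold change 1.67, standard error 0.172, adjusted p = 0.00094, edgeR). *Sfrp5*, a secreted Wnt inhibitor, and *Sncg*, gamma-synuclein, rose by 2.15 and 0.91 on the log2 scale. LFD 4 was the lowest LFD library for 7 of the 8 genes that rose, as it was for 336 of all 676 genes called higher. *Npr3*, the clearance receptor of natriuretic peptides, at 368 and 957 TPM, and *Bmp3*, at 18.8 and 39.6 TPM, overlapped between diets and were not called.

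*Tph2* (ENSMUSG00000006764, chromosome 10 from 114515697 to 114622078), a tryptophan hydroxylase of serotonin synthesis best known from neurons, had the largest fitted rise among genes whose ranges did not overlap. It stood at 0.878, 0.261, 0.138, 0.0149 and 0.127 TPM on LFD and 6.11, 11.7, 6.3, 12.6 and 24 TPM on HFD (log2 fold change 5.24, standard error 0.829, adjusted p = 0.00604, edgeR), low on the first diet in each mouse. *Tph1*, the other tryptophan hydroxylase, fell from 27 to 3.57 TPM, with LFD values of 2.78 to 70.4 TPM that overlapped those on HFD (log2 fold change -3.21, adjusted p = 0.0879, edgeR). *Mmd2* made the opposite change within the fat expansion list. Its values were 0.203, 2.54, 6.05, 17.3 and 1.21 TPM on LFD and 0.0157, 0.0638, 0.0317, 0.0187 and 0 TPM on HFD (log2 fold change -7.95, standard error 1.26, adjusted p = 0.00604, edgeR), so it was nearly lost on HFD.

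Caveolae, the membrane pits that crowd the adipocyte surface, had 3 of 10 tested genes called higher and none lower (median 0.46). Those called higher were 6 without LFD 1 (median 0.69), but 2 without LFD 2, LFD 3, LFD 5, HFD 12 or HFD 15. The median was 0.35 without LFD 4. *Cav1*, caveolin, stood at 1211, 884, 696, 416 and 877 TPM on LFD and an even 1599.9, 1672, 1552, 1544 and 1758 TPM on HFD (log2 fold change 0.82, standard error 0.213, adjusted p = 0.051, edgeR), and the cavin genes *Ptrf* and *Prkcdbp* rose by 0.92 and 1.08. Of 12 tubulin genes 4 were called higher. *Tuba1a*, a tubulin of microtubules, stood at 686, 629, 340.3, 214 and 433 TPM on LFD and 4030.1, 2514, 2464, 1752 and 2991 TPM on HFD (log2 fold change 2.53, standard error 0.328, adjusted p = 0.00304, edgeR), each HFD value above each LFD value. Near-identical coding sequence among tubulins can split reads, and *Tuba1b* rose as well (log2 fold change 1.19, adjusted p = 0.00352, edgeR), as did *Tubb6* and *Tubb2a*. Without LFD 2, LFD 5, HFD 11, HFD 12 or HFD 15, 2 tubulin genes were called.

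Of 25 tested adipokine genes, 8 rose and 2 fell (median 0.25). Beside *Lep* and *Sfrp5*, *Apln*, apelin, rose from 0.768 to 4.19 TPM (log2 fold change 2.26, adjusted p = 0.00528, edgeR). The chemokine gene *Ccl2* rose by 1.18 and *Rarres2*, chemerin, by 0.83 on the log2 scale. *Fgf1* (1.09) and *C1qtnf9*, a relative of adiponectin, also rose. *Agt*, angiotensinogen, fell (-2.05), and so did *Lcn2*, lipocalin (-0.75). *Adipoq* was not called (log2 fold change 0.25, adjusted p = 0.446, edgeR). Without LFD 2 or HFD 12, 4 adipokine genes were called higher, and 5 without LFD 3 or HFD 13, and the median was 0.12 without HFD 11.

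**Figure D2:**
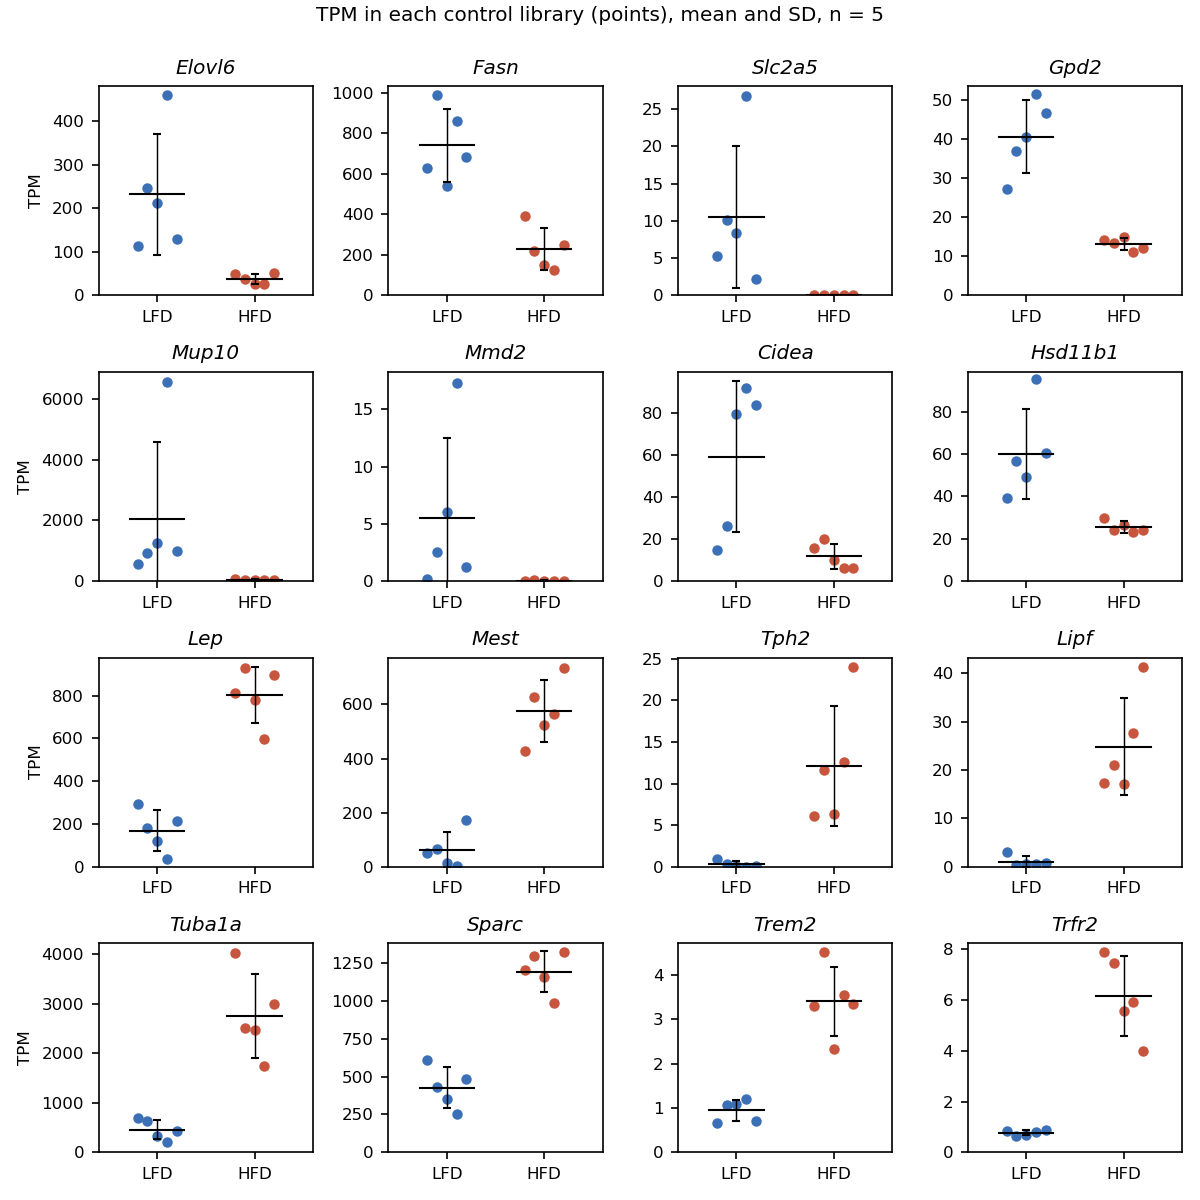
TPM of 16 genes on the vertical axis in each control library (points, left to right in library number), with the mean as a bar and the SD as whiskers, n = 5 per diet, and axes that start at 0, so that whiskers below 0 are not drawn. In the upper 2 rows the genes called lower, such as *Slc2a5* and *Gpd2*, and in the lower 2 rows those called higher, such as *Lep* and *Trfr2*, separate the diets in each panel except *Cidea*, where LFD 1 lies among the HFD mice.

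The major urinary proteins, lipocalins that carry pheromones and are made mainly by the liver, had the highest share of calls of any list. Of 20 genes in the list 14 were tested, 12 were called lower and none higher. The median log2 fold change was -5.46. Summed TPM of the list was 1555, 2045, 2995, 12744 and 2411 on LFD and 182, 76.7, 69.9, 82.5 and 87.2 on HFD, so the diets were apart in each mouse and LFD 4 stood highest. *Mup10* stood at 567, 909.8, 1259, 6566 and 988 TPM on LFD and 76.2, 21.2, 29.1, 24.3 and 26.9 TPM on HFD (log2 fold change -6.17, standard error 0.801, adjusted p = 0.00304, edgeR). *Mup14* stood at 553, 525, 901, 2431 and 635 TPM and 25.4, 20.9, 12.8, 19.8 and 29.9 TPM (log2 fold change -5.81, standard error 0.539, adjusted p = 0.00063, edgeR). Between 10 and 13 genes of the list were called lower whichever library was left out. The other called copies fell as well, from 502 to 12.3 TPM for *Mup18*, 474 to 10.4 TPM for *Mup11*, 187 to 5.85 TPM for *Mup15*, 34.1 to 0.749 TPM for *Mup16* and 9.11 to 0.172 TPM for *Mup2*. The smallest falls were those of *Mup17*, *Mup7*, *Mup19* and *Mup3*, with log2 fold changes of -4.06, -3.65, -3.03 and -1.74, and *Mup3* overlapped between diets. *Mup8* was listed at 0 TPM in all HFD libraries and had a mean of only 1.02 TPM on LFD, and its ranges overlapped as well.

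These genes lie side by side on chromosome 4 and are close copies, so that reads may be shared out among them and the value of a single copy is uncertain. The stretches below come from the RefSeq promoter windows on GRCm38.p6 (250 bases before to 50 after a gene's start). Stretches are given for 6 of the 12 called copies, all holding the same 20 bases from the first capital on. No copy without these bases was printed. The likeness over these bases and the place of the capitals therefore describe the 6 copies given, not all called copies. The capitals mark TATATAA, the letters of a TATA box, which begins between 25 and 31 bases before the annotated start, and all stretches are on the minus strand.

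Mup2, chr4:60139864-60139898: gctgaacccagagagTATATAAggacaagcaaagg
Mup10, chr4:60582166-60582200: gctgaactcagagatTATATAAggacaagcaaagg
Mup18, chr4:61674103-61674137: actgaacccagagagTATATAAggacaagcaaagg

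The stretches of *Mup15* (chr4:61439710-61439744), *Mup17* (chr4:61595838-61595872) and *Mup19* (chr4:61782236-61782270) were identical to that of *Mup2*. The 20 bases from the first capital on were found in the windows of 9 of the 10 called *Mup* genes with an entry. Over all 32851 promoter windows, on both strands, these 20 bases occurred in 12, all of *Mup* genes or pseudogenes, and TATATAA, which they contain, occurred in 3.24%. Entries were matched by symbol. The match describes the sequence only.

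The genes of brown and beige fat were lower on HFD, in part of the LFD mice. Of 20 tested, 7 were called lower and none higher, with a median of -0.83. All 7 overlapped between the diets, and LFD 5, the library with most of the muscle signal described below, was the highest LFD library for 5 of them. The part of that signal here was not tested. *Cidea*, a droplet protein of brown fat, stood at 14.6, 26, 79.4, 91.8 and 83.9 TPM on LFD and 15.9, 20.1, 9.9, 6.06 and 6.22 TPM on HFD (log2 fold change -2.58, standard error 0.538, adjusted p = 0.0216, edgeR). LFD 3, LFD 4 and LFD 5 were high, whereas LFD 1 lay within the HFD range and LFD 2 just above it. *Ucp1*, the uncoupling protein, stood at 13.7, 10.4, 100.4, 82.5 and 133 TPM on LFD and 1.28, 34.4, 4.26, 3.2 and 0.57 TPM on HFD and was not called (log2 fold change -3.14, adjusted p = 0.126, edgeR). The other called members were *Cox7a1*, *Elovl3*, *Slc27a2*, *Pank1*, *Ppargc1a* and *Ppargc1b*, with log2 fold changes of -1.94, -3.72, -3.24, -1.62, -0.76 and -1.11. Summed TPM of the list was 144 in LFD 1, 215 in LFD 2, 601 in LFD 3, 851 in LFD 4 and 677 in LFD 5, and between 106 and 315 on HFD. Between 5 and 10 members were called lower when 1 library was left out.

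Transcripts of the mitochondrial genome also fell. This list was added after the values had been seen. Of its 12 protein genes 8 were called lower and none higher, with a median of -0.98. *mt-Nd5*, a subunit of complex I, stood at 2841, 1981, 1961, 1035 and 2705 TPM on LFD and 640.3, 849.7, 714, 898 and 783 TPM on HFD, without overlap (log2 fold change -1.64, standard error 0.278, adjusted p = 0.00778, edgeR). Together the 12 took 21.3 ± 3.8% of TPM on LFD and 14.1 ± 1.89% on HFD (SD, n = 5 each), and LFD 4, at 15.5%, lay inside the HFD range of 11.9 to 16.02%. Of 53 nuclear genes of the respiratory chain all 53 had a negative log2 fold change, with a median of -0.42, but only 4 were called (*Cox6c*, *Cycs*, *Ndufa6*, *Ndufs1*). None was called without LFD 3, LFD 5, HFD 13 or HFD 14, 1 without HFD 11, HFD 12 or HFD 15, 2 without LFD 4 and 9 without LFD 1. The summed TPM of the list was 14497 in LFD 4 and between 8937 and 11086 in the other LFD mice, and the median was -0.15 without LFD 4.

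**Figure D3:**
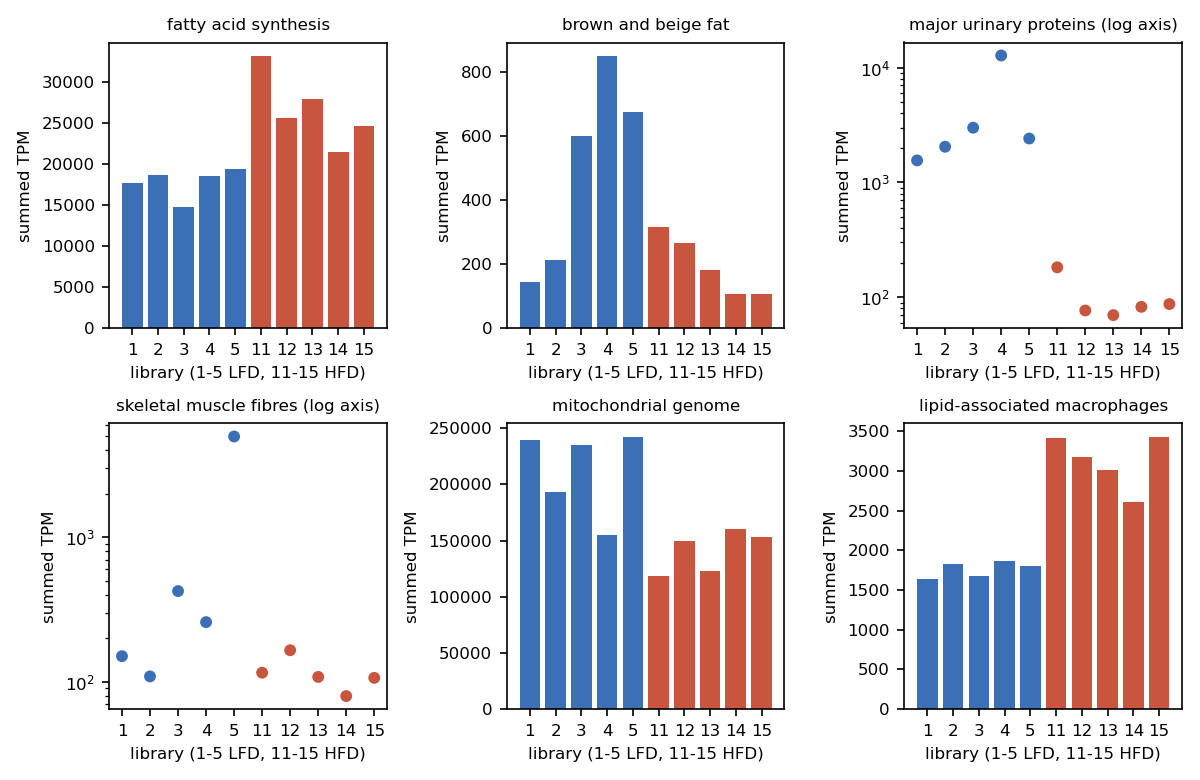
Summed TPM of 6 gene lists in each control library, libraries 1 to 5 on LFD in blue and 11 to 15 on HFD in red; the panels of major urinary proteins and skeletal muscle fibres have log axes and points, and the others bars from 0. LFD 4 leads the major urinary proteins with 12744 TPM, LFD 5 the muscle genes with 4967 TPM, and the sum for fatty acid synthesis, most of it *Scd1*, is higher on HFD although 8 of its genes fell.

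Macrophage genes of the lipid-associated type, which is known to gather around dying adipocytes, rose. Of 24 genes, all tested, 8 were called higher and none lower, and 21 had a positive log2 fold change (median 0.50). Summed TPM of the list lay between 1636 and 1865 on LFD and between 2614 and 3428 on HFD. *Trem2*, the lipid receptor that marks these cells, stood at 0.662, 1.07, 1.09, 1.19 and 0.705 TPM on LFD and 3.3, 4.52, 2.33, 3.54 and 3.34 TPM on HFD (log2 fold change 1.67, standard error 0.254, adjusted p = 0.00554, edgeR). *Mmp12*, the macrophage elastase, stood at 9.39, 3.36, 4.42, 2.97 and 7.55 TPM and 24.9, 68.2, 20.4, 35.9 and 76.9 TPM (log2 fold change 2.39, standard error 0.424, adjusted p = 0.00962, edgeR). In both genes each HFD mouse was above each LFD mouse, and HFD 12 and HFD 15 were highest for *Mmp12*. *Itgax*, which encodes the integrin CD11c, stood at 1.07, 1.63, 1.44, 1.36 and 2.08 TPM and 2.98, 3.43, 3.73, 2.95 and 3.1 TPM (log2 fold change 0.92, standard error 0.164, adjusted p = 0.00987, edgeR).

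*Atp6v0d2*, *Gpnmb*, *Lgals3*, *Ctsl* and *Cd68* rose by 2.59, 1.41, 1.10, 0.92 and 0.89 on the log2 scale. General macrophage genes were mostly not called. Of 22 genes of resident macrophages *Gas6* alone was called, and it fell (log2 fold change -1.06, adjusted p = 0.0586, edgeR). *Emr1*, which encodes the pan-macrophage marker F4/80, was not called (log2 fold change 0.27, adjusted p = 0.288, edgeR), nor was *Mrc1* (log2 fold change -0.18, adjusted p = 0.637, edgeR). None of 24 lymphocyte genes was called, where *Ptprc* had 51.9 and 62.3 TPM and *Igj* 52.4 and 29.4 TPM. *Kit* and *Siglech* fell in a list of 15 neutrophil, mast and dendritic cell genes, and *Oas2* fell among 28 interferon-stimulated genes. These calls made 13.3% and 3.57% of their lists, against 9.32% of all genes tested.

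The called genes of vessels were all higher, whereas called matrix genes went both ways. Of 28 endothelial and angiogenic genes, 20 had a positive log2 fold change (median 0.30), and 7 were called higher and none lower. Those called were *Apln* and the gene of its receptor, *Aplnr* (1.18), together with *Cdh5* (0.66), *Erg* (0.91), *Esam* (0.52), *Tie1* (0.61) and *Gpihbp1*. *Pecam1* was not called (log2 fold change 0.46, adjusted p = 0.116, edgeR). Without LFD 3, HFD 12 or HFD 13, 3 endothelial genes were called, and 4 without LFD 2 or LFD 5. Among 12 genes of pericytes and smooth muscle *Kcnj8* and *Mcam* rose. *Sparc*, which binds collagen in the matrix, stood at 611, 429, 350.4, 254 and 483 TPM on LFD and 1200.3, 1296, 1159, 985 and 1319 TPM on HFD, all higher (log2 fold change 1.28, standard error 0.201, adjusted p = 0.00603, edgeR). The basement membrane collagens *Col4a1* and *Col4a2* rose by 0.78 and 0.77, and *Col5a2*, *Col6a1*, *Col28a1* and *Col23a1* rose as well, whereas the fibrillar collagen gene *Col1a1* (-0.90) and *Col7a1* (-2.20) fell. That made 6 higher and 2 lower of 25 collagens. With length offsets 2 of these 25 were called higher and 2 lower. Without HFD 11 it was 3 higher and 4 lower, and without LFD 3 or HFD 12, 3 higher and 2 lower. In a matrix list of 36 (median -0.03), *Sparc*, *Mmp12* and *Serpinh1* rose, and *Fn1* and *Mmp9* fell, and without HFD 11, 2 were called higher and 4 lower.

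Of 34 proliferation genes, 5 rose, namely *Ccnb1*, *Ccnb2*, *Kif20a*, *Prc1* and *Tpx2*, by 1.10, 0.97, 0.86, 0.87 and 1.02, and *Tyms* fell. Of the 34, 30 had a positive log2 fold change (median 0.55). Those called higher were 8 without LFD 3 or LFD 4, and 4 without LFD 2, LFD 5, HFD 11, HFD 13 or HFD 15. The summed TPM of the list was 394 in HFD 15 and between 285 and 294 in the other HFD mice. The median was 0.40 without HFD 15. *Mki67*, the usual marker of dividing cells, was not called (log2 fold change 0.52, adjusted p = 0.153, edgeR). *Pdgfra*, the receptor of fat progenitors, stood at 39.6, 47.2, 36.7, 35.7 and 39 TPM on LFD and 28.8, 30.4, 29.8, 28.2 and 19.7 TPM on HFD, below in each mouse (log2 fold change -0.72, standard error 0.127, adjusted p = 0.00911, edgeR), and was the only called one of 23 progenitor genes.

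Among steroid genes, *Hsd11b1*, which regenerates active glucocorticoid inside the cell, stood at 39.1, 56.7, 49.1, 95.2 and 60.5 TPM on LFD and 29.9, 23.9, 26.2, 23 and 24.1 TPM on HFD with no overlap (log2 fold change -1.49, standard error 0.191, adjusted p = 0.00304, edgeR). *Esr1*, the oestrogen receptor, fell by 0.97, and *Hsd17b4* rose by 0.47, so 3 of 14 were called. Of 4 tested chloride channel accessory genes, *Clca1* (-1.13) and *Clca2* (-1.33) fell. Of 29 adipogenic transcription factors none was called higher, and *Tcf7l2*, a Wnt effector (log2 fold change -1.31, adjusted p = 0.00736, edgeR), *Nr2f2* and *Ppargc1a* fell. *Bcat1* rose (1.33) and *Mccc1* fell (-0.68) among 26 genes of branched-chain amino acid breakdown. The share called was 7.69% there and 10.3% among the adipogenic factors, near the 9.32% of all genes tested.

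*Atf3* and *Edem1* rose and *Ern1* and *Gpx3* fell among 36 stress genes, 11.1% called against 9.32% of all genes tested. *Atf3*, *Cyr61* and *Fos* rose and *Myc* fell among 20 immediate early genes, where 1 was called higher without LFD 2 or HFD 13 and none lower without LFD 2, LFD 3, LFD 5, HFD 11, HFD 12 or HFD 13. *S100b* rose and *Drp2* fell among 15 Schwann cell genes (13.3% called), and neither direction held a call without LFD 2, HFD 11 or HFD 12. None of 6 tested blood genes was called, where *Hba-a2* had 837 and 895 TPM and *Hbb-b1* 742 and 718 TPM. In a serotonin list of 8, *Tph2* and *Maoa* rose and *Tph1* fell. List members under the filter were compared by exact permutation tests, in which 4 of 58 had an unadjusted two-sided p under 0.05, the smallest being 0.0317, and none an adjusted p under 0.1. The smallest p that 5 mice against 5 allow is 0.00794.

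**Figure D4:**
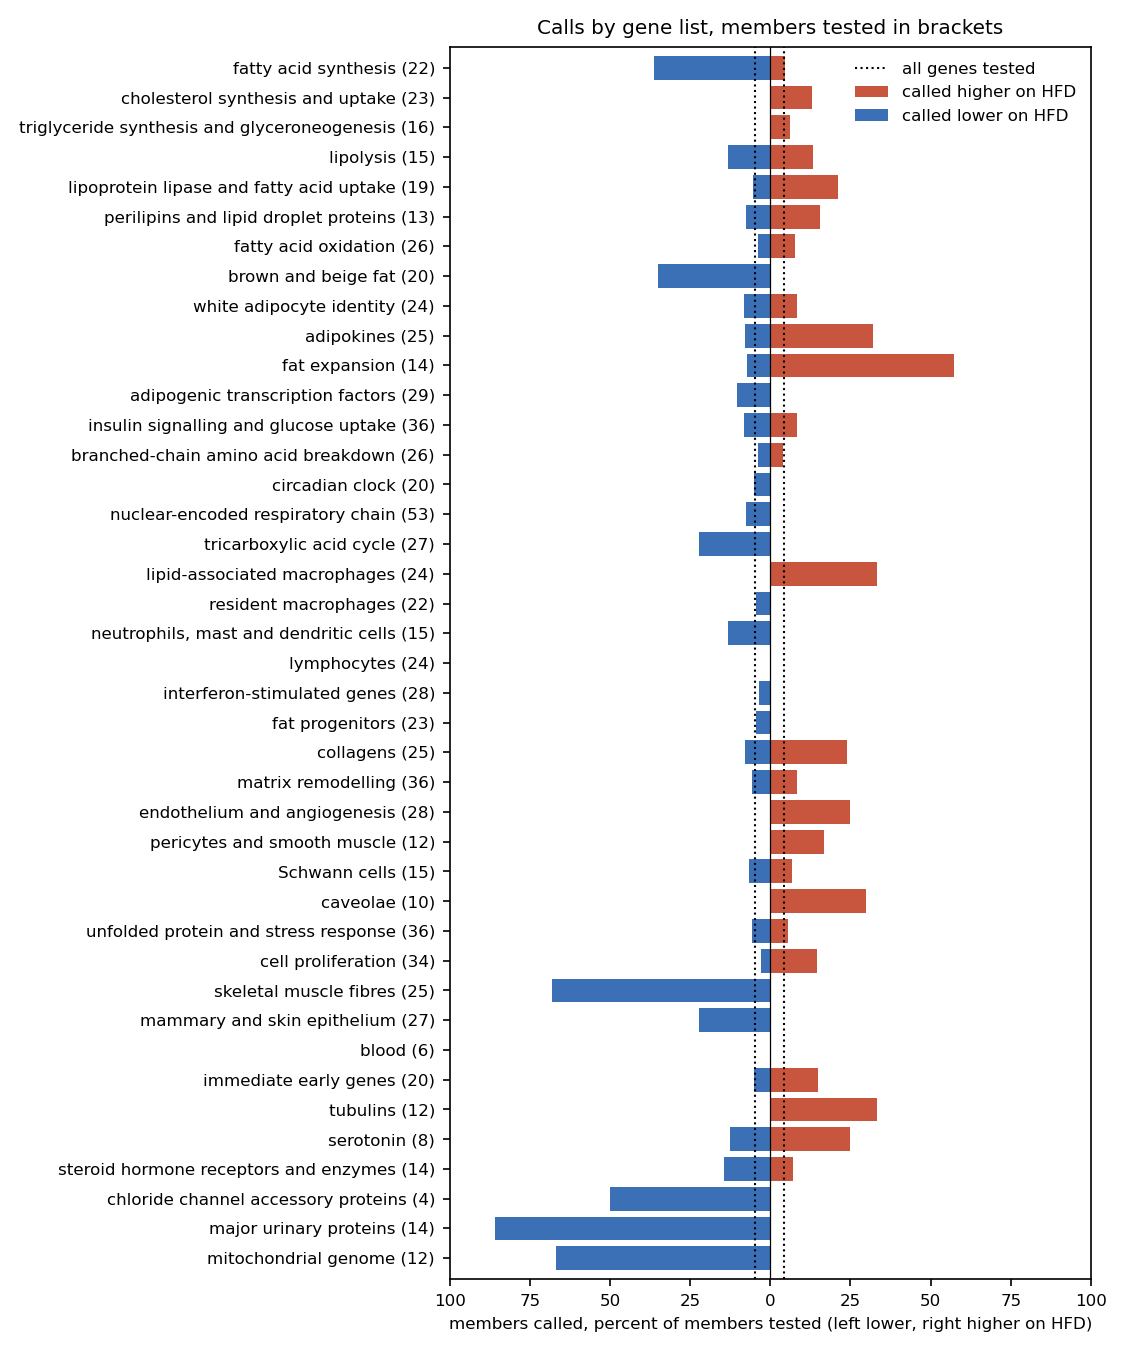
Share of the tested members of each gene list called higher (right, red) and lower (left, blue) on HFD, in percent, with the number tested in brackets and the shares over all genes tested, 4.42% higher and 4.9% lower, as dotted lines. The major urinary proteins, muscle fibres and the mitochondrial genome reach furthest to the left, and fat expansion furthest to the right.

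Several of the other large changes were of genes outside these lists. *Trfr2* (now *Tfr2*), a transferrin receptor, had the smallest p of all genes and stood at 0.826, 0.638, 0.699, 0.822 and 0.892 TPM on LFD and 7.88, 7.47, 5.56, 5.92 and 3.98 TPM on HFD, far above in each mouse (log2 fold change 2.81, standard error 0.207, adjusted p = 0.00026, edgeR). *Nedd9*, a scaffold protein of cell adhesion, rose from 17.3 to 77.9 TPM (adjusted p = 0.00051, edgeR), and the serine protease inhibitor gene *Serpina3c* from 44.1 to 139 TPM (log2 fold change 1.43, adjusted p = 0.00063, edgeR). *Bpifb6*, *Pla2g2e*, a secreted phospholipase, *Fam83d*, *Ncan*, *Gabrr2* and *Atp1a4* rose by 4.89, 3.08, 3.04, 2.94, 2.56 and 3.52 on the log2 scale from low LFD means, 0.0903 TPM for *Bpifb6* and 1.23 TPM for *Gabrr2*. The uncharacterised genes *Gm13293*, *Gm13709*, *Gm13021* and *Gm13703* rose by 4.37, 3.36, 3.07 and 3.02, while *Gm13980* (-5.62) fell. *2310015B20Rik* also fell (-7.36), but without LFD 5, the library with most of the muscle signal described below, it was under the filter. It was not called by limma on log2(TPM + 1) (adjusted p = 0.111) or by the newer quasi-likelihood method of edgeR (adjusted p = 0.113). Among the falls with the smallest p were *Mll2* (now *Kmt2d*), a histone methyltransferase (log2 fold change -1.56, adjusted p = 0.00094, edgeR), the transcriptional corepressor gene *Rere* (log2 fold change -1.22, adjusted p = 0.00094, edgeR) and the uncharacterised gene *Gm17517* (log2 fold change -1.42, adjusted p = 0.00063, edgeR). The small RNA *SCARNA15* (ENSMUSG00000088131) was listed at 0 TPM in all HFD libraries and at a mean of 6.91 TPM on LFD.

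Genes of tissues other than fat were lower on HFD, in part through single mice. Of 25 tested genes of skeletal muscle fibres 17 were called lower and none higher, with a median of -5.24. *Tnnt3*, a fast troponin, stood at 19.3, 3.3, 85.4, 31 and 1395 TPM on LFD and 1.48, 18.5, 2.18, 1.15 and 0.295 TPM on HFD. LFD 5 held most of this signal and was the highest LFD library for all 17. The summed TPM of the list was 4967 in LFD 5, between 109 and 424 in the other LFD mice and between 79.6 and 165 on HFD. Without LFD 5, 1 muscle gene was called, and the median was -2.80. The call also rested on the HFD mice, with 1 gene called without HFD 13 or HFD 15, 2 without HFD 11, 3 without HFD 14 and 11 without HFD 12. *Cacna1s*, *Myom2* and *Mylk4*, also muscle genes and among the 15 largest falls without overlap, were highest in LFD 5, too. Of 27 genes of mammary and skin epithelium 6 were called lower, among them *Expi* (now *Wfdc18*), at 80.1 to 149 TPM on LFD and 19.2 to 64.1 TPM on HFD (log2 fold change -1.35, adjusted p = 0.00911, edgeR), *Elf5* and *Epcam*. Without HFD 12, 1 of them was called, and 3 without LFD 2 or LFD 3. The summed TPM of the epithelial list was 801 to 1365 on LFD and 530 to 1192 on HFD. The part of these tissues in the falls of other genes was not tested.

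Whether the diet acted differently in control and knockout mice was tested as an interaction over all 20 libraries. Of 15574 genes none was called by edgeR, 0% of those tested, with 560 at an unadjusted p under 0.05, and DESeq2 called 16. The diet effect in the knockout libraries, fitted on its own, called 1476 of 15705 genes (9.4%). Of the 1410 genes called in control and tested in knockout mice, 94.8% had the same direction there, against 74.3% of the 14943 genes tested in both. The genes called in both in the same direction numbered 693, 48.6% of the control calls and 47.0% of the knockout calls, and none was called in opposite directions. *Elovl6* had a log2 fold change of -2.84 in control and -2.41 in knockout mice, *Lep* 2.10 and 2.41, *Mest* 3.10 and 3.72, and *Tuba1a* 2.53 and 2.49.

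Several lists held many members with a small interaction p before adjustment. Of 25 muscle genes 23 had an unadjusted interaction p under 0.05 (edgeR), against 560 of all 15574 genes. So had 8 of 19 brown and beige genes, 6 of 12 major urinary proteins and 11 of 34 proliferation genes. All adjusted p were at least 0.976 (edgeR). Among members called lower in control mice, LFD 5 was the highest LFD library for all 17 muscle genes and 5 of 7 brown and beige genes. LFD 4 was the highest for 11 of 12 major urinary proteins. Members led by 1 mouse are not independent, and the part of single mice in these counts was not tested. *Cidea* had log2 fold changes of -2.58 in control and -0.26 in knockout mice (interaction -2.29, adjusted p = 0.9999, edgeR), and *Mup10* -6.17 and -3.01 (interaction -3.14, adjusted p = 0.9999, edgeR). *Pdgfra* had -0.72 and 0.01 (interaction -0.71, adjusted p = 0.976, edgeR), and *Itgax* 0.92 and -0.26 (interaction 1.20, adjusted p = 0.9999, edgeR). The last 2 were among the 16 genes that DESeq2 called. Others of the 16 had extreme fitted log2 differences, up to 28.7 for *Gm4245* and down to -21.7 for *Gm12671*.

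**Figure D5:**
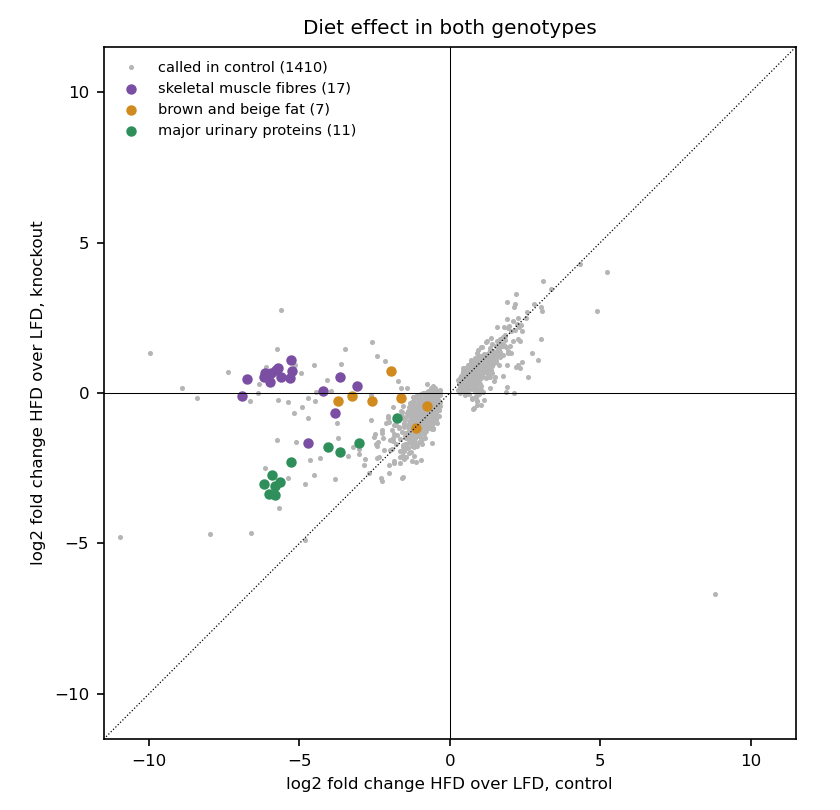
Log2 fold change of HFD over LFD in control (horizontal) and knockout mice (vertical) for the 1410 genes called in control mice and tested in both, with the line of equal change dotted. Most points lie in the same-sign quadrants (94.8%). Most of the 17 muscle genes shown lie far below 0 in the control mice, and LFD 5 was their highest LFD library. The 7 brown and beige genes shown lie between -3.72 and -0.76 in the control mice. Most genes of both lists lie near 0 in the knockout mice, but edgeR called no interaction.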

How the data were processed

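RNA from whole iWAT was sequenced from stranded total RNA libraries after ribosomal RNA depletion. The deposited tables hold estimated counts and TPM per transcript, which the authors obtained with Salmon 0.13.1 against mouse transcripts of NCBIM37 (mm9), and TPM values are relative to all transcripts of a library. The submitters' processing notes also name STAR 2.5.3. Transcripts were summed here per gene with the annotation of the same assembly. Identifiers that could not be matched held between 0.377% and 0.579% of the estimated counts of a library and were left out.

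Groups came from the labels. Summed estimated counts were rounded and fitted with edgeR 4.0.16 (quasi-likelihood test, TMM scaling, R 4.3.3) in the 10 control libraries over genes whose mean TPM reached 0.5, without covariates, and p-values were adjusted over all 15311 genes (Benjamini-Hochberg, 0.1 as the threshold, after the study's methods). The interaction was fitted over all 20 libraries. Alternatives were DESeq2 1.42.0, limma 3.58.1 on log2(TPM + 1), other scalings, filters and length offsets, and leaving out each library. On simulated counts with 200 changed genes edgeR recovered 64.5% and called 14 unchanged genes among 15305 in all. DESeq2 recovered 74% of the same changes and called 65 unchanged genes. All planted log2 fold changes were at least 1 in size. The median of the real calls was smaller, 0.75 for genes called higher and -0.91 for those called lower. Recovery of such smaller changes was not tested.

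The comparison and the gene lists were chosen with earlier results of these data known. Genes were named in the text as called list members, reference markers, the 15 largest changes in each direction without overlap and with a mean of at least 1 TPM on the higher diet, and the 10 smallest p. Some genes that this would name are not reported here. The mitochondrial genome list, the knockout fit and TMM-scaled TPM were added after the values had been seen. Mice were caged in groups, and neither cage nor sequencing batch is given for a library. P-values describe only the spread between these samples. No pair of libraries held identical values. List members not found by name were 4 (*Hmgcs1*, *Ncmap*, *Hbb-bs*, *Gper*).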

Additional observations from a re-analysis of the deposited data

Results flagged for a closer look

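Single libraries stood apart from the other 4 of their group in 15 of 70 groups of 5 examined, by Dixon's ratio at the 95% level. Chance flags about 1 in 20 groups if their values are normally distributed. The groups here are not independent, since *Mup10* and *Mup14* are part of the summed major urinary proteins and *Tnnt3* of the summed muscle genes. The 15 can therefore not be read as an excess over that rate. Library LFD 4 was far above the other LFD mice for *Thrsp* (602 TPM), *Brp44l* (1182 TPM), *Mup10* (6566 TPM), *Mup14* (2431 TPM) and the summed major urinary proteins (12744 TPM). Library LFD 5 was so for *Tnnt3* (1395 TPM) and for the summed skeletal muscle genes (4967 TPM). LFD 1 was the highest LFD library for *Lipf*, at 3.0 TPM, and for *Tph2*, at 0.878 TPM, both still below every HFD library.

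Among the HFD mice, HFD 11 was highest for *Thrsp* (108 TPM), *Mup10* (76.2 TPM) and the summed major urinary proteins (182 TPM). HFD 12 was highest for *Ucp1* (34.4 TPM) and *Tnnt3* (18.5 TPM), and HFD 15 lowest for *Pdgfra* (19.7 TPM). DESeq2 called a difference in diet effect between control and knockout mice for 16 genes, and edgeR for none. The difference, control minus knockout, was positive for 10 and negative for 6. Some fitted log2 differences were extreme, such as 28.7 for *Gm4245*, 26.8 for *Gm10031*, -21.7 for *Gm12671* and -21.1 for *Gm7120*. *Itgax* had 1.2 and *Pdgfra* -0.712. Whether the extreme values rest on few reads was not tested, so the 16 are calls of 1 method only.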

How the results depend on the processing

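The 1427 calls, 676 higher and 751 lower, became 2205 with DESeq2 (1056 higher, 1149 lower). They became 1791 higher and 348 lower with limma on log2(TPM + 1), and 2148 (1791 higher, 357 lower) with a pseudocount of 0.1. After TMM scaling of TPM, limma called 614 higher and 570 lower. The newer quasi-likelihood method gave 1617 calls, the table without a filter 1068, and the other scalings, filters and length offsets between 1221 and 1433. Leaving out 1 library gave 780 to 1845 calls, 376 to 1034 higher and 389 to 817 lower. Distinct list members called higher were 73, with 43 to 87 when 1 library was left out, and those called lower 101, with 63 to 130. The interaction gave 0 calls with edgeR and 16 with DESeq2. The causes of these differences were not tested.

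Of the 128 genes with a fitted value in the text, none reversed under an alternative. Of the 116 called among them, 73 kept the same result under every alternative. All 116 were still called with DESeq2, 109 with length offsets and 104 with limma on log2(TPM + 1). The calls of *Siglech*, *Fos*, *Edem1*, *Cox6c*, *Pik3cb*, *Akt2*, *Erg*, *Serpinh1*, *Gpx3*, *Fn1*, *Lcn2*, *Col23a1*, *Elovl3*, *Tph1*, *Fgf1*, *Cycs*, *Ndufa6*, *Apoe* and *C1qtnf9* held in 3 or fewer of the 10 fits that left out a library. No paired analysis was possible because the replicate numbers of the groups compared are not shared. Depth limited genes near 0, such as *Slc2a5* and *Mmd2* on HFD, whose fold changes rest on few reads in that group.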
